A study of Homo sapiens with 12 samples.

Results

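The ZBTB genes encode transcription factors that join a BTB domain, through which the proteins pair and recruit corepressors, to zinc fingers that bind DNA. Members were chosen by symbol (ZBTB) and by having at least 1 m6A peak in any of 6 peak lists from 143B cells. There were 40 such genes among 10536 genes with a peak. The 40 came from 60 ZBTB symbols in the RefSeq gene table. Of the 20 symbols without a peak, 11 were noncoding RNAs, 6 were pseudogenes and 3 were protein-coding genes, namely ZBTB16 (PLZF, a gene fused to RARA in promyelocytic leukaemia), ZBTB32 and ZBTB7C. The name did not hold for 2 members. ZBTB8OS encodes archease, a cofactor of tRNA ligation, and ZBTB11-AS1 is an RNA antisense to ZBTB11, so 38 members were BTB-zinc finger genes. The members just inside the rule were ZBTB8B, with 1 peak of 121 nt in 1 library, and ZBTB8OS, with 1 peak in each of 2 libraries.

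N6-methyladenosine (m6A) is a methyl mark on RNA that a writer complex adds and that ALKBH5 and FTO remove. It is known to be dense in long internal exons and near stop codons. Many zinc finger proteins, BTB-zinc finger proteins among them, have most of their coding sequence in a few long exons. Since the members were chosen for having a peak, having one is no result about them.

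143B is an established human osteosarcoma line. Cells were transfected with siRNA against ALKBH5 (the knockdown) or with scrambled siRNA and harvested at 48 h, with 3 immunoprecipitated libraries per condition and no other treatment in either. RNA fragments bound by an anti-m6A antibody were sequenced. Per the protocol in the labels, replicates 1 and 3 used polyadenylated RNA with different antibodies, and replicate 2 used total RNA with a kit and a further antibody, so replicate number and method cannot be told apart. The per-sample antibody label gives that of replicate 1 in every case, so the other antibodies rest on the protocol text. The labels do not say whether the replicates were separate cultures, so any p-value measures only the spread between these samples.

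The lists held 5677 to 18724 peaks per library and no read counts, so their depth is unknown. ALKBH5 itself had no peak in any knockdown library and 1 peak in each of scrambled replicates 1 and 3. A peak is not an RNA level, so neither the knockdown nor the cell type could be checked on expression. Of 9 mesenchymal and bone markers, 4 had a peak (RUNX2, COL1A1, CD44 and SPP1) and 5 had none (COL1A2, SPARC, VIM, ALPL and SP7). None of 4 epithelial and 4 blood markers had one. A gene was "called" in a library when that list held at least 1 peak with its gene number. A missing call can reflect low RNA or depth as well as absence of the mark.

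Most ZBTB transcripts carried peaks in nearly every library. All 4 poly(A) libraries called 38 of the 40 members, against 58.7% of all genes with a peak, and the exceptions were ZBTB8B and ZBTB8OS. All 6 libraries called 18 members (45.0%), against 23.3% of all genes. These were ZBTB2, ZBTB4, ZBTB5, ZBTB7A, ZBTB7B, ZBTB10, ZBTB11, ZBTB14, ZBTB18, ZBTB21, ZBTB22, ZBTB24, ZBTB38, ZBTB39, ZBTB40, ZBTB42, ZBTB44 and ZBTB46. Only ZBTB8B was called in a single library, against 12.9% of all genes. Among ZNF zinc finger genes, which mostly lack a BTB domain, 17 of 175 on chromosome 19 and 57 of 234 on other chromosomes were called in all 6 libraries (9.71% and 24.4%). Single poly(A) libraries called 95.0 to 100% of members, 91.5 to 98.7% of ZNF genes outside chromosome 19 and 85.7 to 98.3% on it. Over all genes the range was 66.5 to 88.2%. A high share in poly(A) libraries was thus common to both families. These shares are descriptions, and the difference between the families was not tested.

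**Figure D1:**
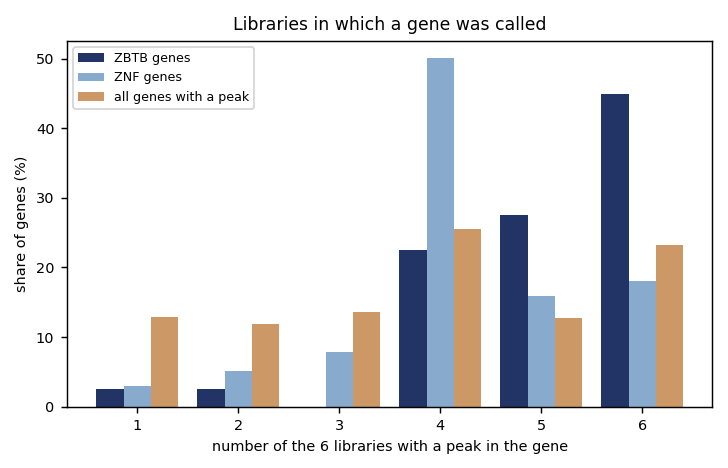
Share of genes (%, y axis) by the number of libraries that called them (x axis) for the 40 ZBTB genes, all ZNF genes and all 10536 genes with a peak. Of the ZBTB genes 45.0% stand at 6 libraries, against 23.3% of all genes.

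The total RNA libraries of replicate 2 set the members apart from each other. Knockdown replicate 2 called 21 members and scrambled replicate 2 called 26, where each poly(A) library called 38 to 40. Both total RNA libraries called 18 members (24.0% of all genes), and neither called 11 (60.6% of all genes). The 11 were ZBTB3, ZBTB6, ZBTB8A, ZBTB8B, ZBTB8OS, ZBTB20, ZBTB25, ZBTB33, ZBTB37, ZBTB41 and ZBTB49. ZBTB18, a repressor in neuronal development also called RP58, was at the other end. Its peaks covered 1229 nt of exon in knockdown and 841 nt in scrambled replicate 2, the most of any member in either library. ZBTB10 came next with 1051 and 751 nt. The best peak of ZBTB18 stood between the 93.9 and 97.5 percentile of its own list by score in every library, on a scale where 100 is the best.

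The median covered exon per called gene was higher for members than for all genes in every library, while single peaks were not longer in every library. Covered exon length, the summed length of a gene's peaks without introns, had a median of 1170 nt per called member in knockdown replicate 1 and 900.5 nt in its control. In replicate 3 the medians were 1530 and 1479 nt. Over all called genes the same medians were 481, 361, 600 and 597 nt. In replicate 2 they were 302 nt (knockdown) and 240.5 nt (scrambled) for members, against 211 and 210 nt for all genes. ZNF genes outside chromosome 19 had 900, 688.5, 1316 and 1350 nt in replicates 1 and 3, and 270.5 and 239 nt in replicate 2. Those on chromosome 19 had 792, 511, 1076 and 1342.5 nt, and 181 and 165 nt in replicate 2. Medians above those of all genes were thus shared with ZNF genes, except on chromosome 19 in replicate 2. The median single member peak was 330.5, 180 and 510 nt in knockdown replicates 1 to 3, against 269, 151 and 331 nt over all peaks. In the scrambled libraries it was 181, 121 and 506 nt against 209, 151 and 331 nt, so it was shorter than that of all peaks in scrambled replicates 1 and 2. Peaks over 1000 nt made up 25.3% of member peaks in each library of replicate 3, against 9.43% (knockdown) and 8.5% (scrambled) of all peaks. In replicate 2 no member peak was that long (0.203 and 0.0528% of all peaks). The longest member peak of all was one of 2100 nt in ZBTB21, in knockdown replicate 3. Between 84.2 and 97.4% of member peaks lay in a single exon block, against 82.7 to 95.9% of all peaks.

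**Figure D2:**
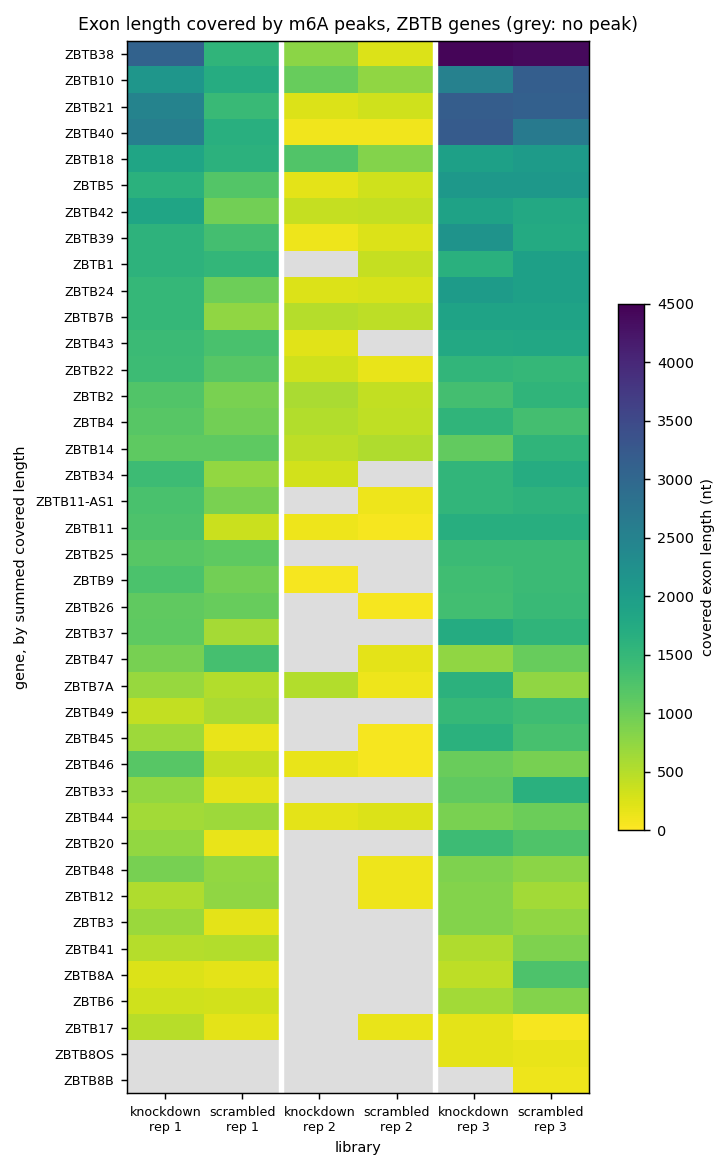
Covered exon length (nt, colour) of each ZBTB gene (rows) in each of the 6 libraries (columns), with same-numbered libraries side by side and grey where no peak was listed. ZBTB38 has the darkest cells, at 4439 and 4377 nt in replicate 3, and the grey cells lie almost all in replicate 2.

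In the comparison of knockdown with scrambled siRNA, the number of ZBTB genes with a peak did not differ beyond the spread between libraries. That spread includes the gap between total RNA and poly(A) RNA, so a difference of a few genes could not exceed it. Knockdown libraries called 38, 21 and 39 members in replicates 1, 2 and 3 (mean 32.7 ± 10.1, SD, n = 3), and scrambled libraries called 38, 26 and 40 (34.7 ± 7.57, SD, n = 3). The difference was 0, -5 and -1 within the pairs. Peaks of members numbered 106, 38 and 95 in the knockdown and 109, 39 and 95 in the control, 482 in all. They made up 0.604, 0.642 and 0.517% of the knockdown lists and 0.72, 0.687 and 0.507% of the control lists.

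Calls per gene differed between the conditions almost only in replicate 2, the total RNA pair. In replicate 1 no member was gained or lost, where gained means called in the knockdown and not in its control (16.9% of all genes were gained and 5.0% lost). In replicate 3 ZBTB8B alone was lost (7.83% of all genes) and none was gained (6.28%). Scrambled replicates 1 and 3 already called 95.0 and 100% of members, against 66.5 and 88.2% of all genes. Members thus had little or no room for a gain in these pairs, so the gained shares are not like for like. In replicate 2, 3 members were gained (7.99% of all genes) and 8 were lost (7.35%). Over all libraries 3 members were therefore called in more knockdown than scrambled libraries (26.1% of all genes) and 9 in fewer (17.1%). The first of these shares is not like for like either, since members could gain calls almost only in replicate 2. No member differed by more than 1 library. No member had calls in every knockdown and no scrambled library (0.114% of all genes) or the reverse (0.0285%).

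The 3 gained members were ZBTB9, ZBTB34 and ZBTB43. ZBTB43 covered 210 nt in knockdown replicate 2, at the 41.2 percentile of that list. ZBTB34 covered 302 nt in 2 peaks, with the better at the 26.8 percentile. ZBTB9 covered 61 nt at the 4.78 percentile, among the weakest calls of the list. The gain of ZBTB9 rested on its gene number: scrambled replicate 2 listed a peak of 60 nt without a gene number in the same region, and with such peaks counted 2 members were gained in place of 3.

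The 8 lost members were ZBTB1, needed for lymphoid development, ZBTB17 (Miz-1, a DNA-binding partner of MYC), ZBTB48 (TZAP, which binds telomere repeats), ZBTB12, ZBTB26, ZBTB45, ZBTB47 and ZBTB11-AS1. ZBTB1 covered 391 nt in 2 peaks of scrambled replicate 2, the better at the 74.2 percentile, and had no peak in knockdown replicate 2. In the poly(A) libraries ZBTB1 covered 1584 and 1643 nt in the knockdown and 1526 and 1942 nt in the control. As a gene call, its loss was thus confined to replicate 2, the total RNA pair. The other 7 were weaker calls in scrambled replicate 2. ZBTB48 covered 121 nt at the 49.2 percentile and ZBTB17 151 nt at best at the 36.3 percentile. ZBTB11-AS1, ZBTB12, ZBTB26, ZBTB47 and ZBTB45 stood at 26.8, 21.8, 17.0, 17.0 and 8.29.

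Covered length followed the length of the whole lists. Over replicates 1, 2 and 3, member peaks covered 46.4, 8.2 and 59.5 kb after knockdown (mean 38.0 ± 26.7 kb, SD, n = 3) and 32.6, 7.2 and 60.1 kb in the controls (33.3 ± 26.5 kb, SD, n = 3). The ratios within pairs were 1.42, 1.14 and 0.99, beside 1.57, 1.13 and 1.00 for all peaks of the lists. Members held 0.808, 0.759 and 0.757% of the covered length of the knockdown lists and 0.891, 0.748 and 0.766% of the control lists. The share differed by -0.083, 0.011 and -0.009 percentage points within the pairs, so it was lower in the knockdown in 2 of the 3.

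Gene by gene, the direction depended on the pair. In replicate 1, 32 of 38 members called in both libraries were longer in the knockdown (81.9% of all genes called in both) and 6 were shorter (15.7%). In replicate 2, 10 of 18 were longer (52.5%) and 7 shorter (39.9%). In replicate 3, 20 of 39 were longer (48.9%) and 16 shorter (45.2%). The median ratio of members was 1.34, 1.17 and 1.00 in replicates 1, 2 and 3, and that of all genes called in both was 1.47, 1.08 and 1.00. The longer members were 84.2, 55.6 and 51.3% of those called in both, close to the shares of all genes.

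**Figure D3:**
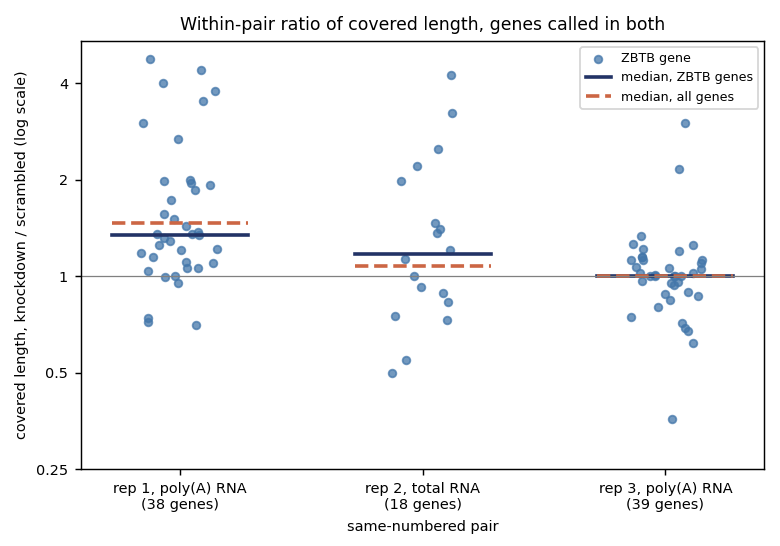
Covered length in the knockdown over scrambled (y axis, log scale) for each ZBTB gene called in both libraries of a same-numbered pair (x axis), with the medians of ZBTB genes (solid) and of all genes (dashed). Most points lie above 1 in replicate 1, and in replicate 3 they lie on both sides of 1.

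A two-sided exact permutation test of covered length was run for all 10536 genes, and 3 libraries against 3 cannot give a p below 0.1. With Benjamini-Hochberg adjustment no gene passed 0.05 (0.0%), nor did any at an unadjusted 0.05. Over members the exact permutation p ran from 0.5 to 1, with adjusted p of 1 throughout. For no member did the 3 knockdown values lie all above or all below the 3 scrambled values (0.285 and 0.0285% of all genes). This unpaired test pools total RNA with poly(A) RNA. Medians per called member were 302 and 240.5 nt in replicate 2, against 900.5 to 1530 nt in the other libraries. Such a gap makes the 2 conditions overlap with or without a change, and 33 of the 10536 genes reached 0.1. The large p-values of members therefore do not show that covered length was unchanged.

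Within pairs, 6 members were longer in the knockdown in all 3 (13.0% of all genes) and 3 were shorter in all 3 (1.42%). A peak in every pair is needed for either, and 29 members had one. Among genes with a peak in every pair, 33.8% were longer throughout and 3.71% shorter throughout. The count of longer members was below that share and the count of shorter ones rested on 3 genes.

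Of the 3 members that bind methylated CpG in DNA, 2 were longer in every pair. The share was 13.0% of all genes, and 33.8% of those with a peak in every pair, so a count of 2 says little about the class. ZBTB38 covered 3092, 782 and 4439 nt after knockdown (replicates 1 to 3 in order, here and below) and 1563, 242 and 4377 nt in the controls. The gap was wide in replicates 1 and 2 (ratios 1.98 and 3.23) and near nil in replicate 3 (1.01). ZBTB4 covered 1171, 511 and 1560 nt in the knockdown and 961, 422 and 1351 nt in the controls. Its ratios of 1.22, 1.21 and 1.15 were the most even of the 6, and its best peak stood at the 89.6 percentile or higher in every list. The third, ZBTB33 (Kaiso), was not called in total RNA and so could not be longer in every pair. It covered 722 against 180 nt in replicate 1 and 1106 against 1643 nt in replicate 3, so the poly(A) pairs went opposite ways.

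ZBTB7A and ZBTB7B, related factors known for silencing fetal globin and for the fate of CD4+ T cells, were both longer in every pair. ZBTB7A covered 688, 510 and 1614 nt in the knockdown and 511, 120 and 747 nt in the controls. Its ratios were 1.35, 4.25 and 2.16, the only ones of the 6 with more than 2-fold in replicate 3. The groups still overlapped, since knockdown replicate 2 lay below scrambled replicates 1 and 3. ZBTB7B covered 1497, 509 and 1885 nt in the knockdown and 750, 449 and 1884 nt in the controls, a difference of 1 nt in replicate 3.

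ZBTB46, a marker of classical dendritic cells, covered 1169, 150 and 1020 nt in the knockdown and 389, 60 and 930 nt in the controls. ZBTB22 covered 1410, 330 and 1530 nt in the knockdown and 1170, 150 and 1500 nt in the controls. In replicate 3 they differed by 90 and 30 nt, and ZBTB46 differed by 90 nt in replicate 2 as well.

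The 3 members that were shorter in every pair were ZBTB14, ZBTB44 and ZBTB47. ZBTB47 covered 931, 0 and 751 nt in the knockdown and 1321, 181 and 1049 nt in the controls. Its ratios in the poly(A) pairs were 0.705 and 0.716, although the list of knockdown replicate 1 covered more exon than its control. ZBTB14, also known as ZF5, covered 1110, 450 and 1079 nt in the knockdown and 1111, 540 and 1561 nt in the controls, so replicate 1 differed by 1 nt. ZBTB44 covered 630, 181 and 899 nt in the knockdown and 661, 241 and 1019 nt in the controls, with differences of -31, -60 and -120 nt. The exact paired sign-flip test, with the replicate number as block, gave p = 0.25 for each of the 9 members with the same sign in every pair, the smallest value 3 pairs allow.

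The remaining regulators of blood and immune lineages varied by pair. ZBTB20, which silences fetal genes in liver, was called in poly(A) RNA only and covered 723 against 152 nt in replicate 1 and 1412 against 1231 nt in replicate 3. ZBTB24, mutated in a syndrome of immune deficiency and centromere instability, covered 1502, 241 and 2039 nt in the knockdown and 992, 272 and 1949 nt in the controls. ZBTB17 covered 480, 0 and 180 nt in the knockdown and 180, 151 and 60 nt in the controls, longer in poly(A) RNA and lost in total RNA. Of the 9 entries of this list 7 had a peak, 3 of them longer in every pair (13.0% of all genes, and 33.8% of those with a peak in every pair) and none shorter in every pair (1.42%). Of the 7, 0 were called in more (26.1%) and 2 in fewer knockdown libraries (17.1%). The median difference over the 7 was 250.7 nt, beside 99.7 nt over all members and 40.0 nt over all genes. These are absolute lengths, and called members covered more exon than all called genes (medians of 1170 and 481 nt in knockdown replicate 1). As ratios within pairs, the medians were 1.34, 1.17 and 1.00 for members and 1.47, 1.08 and 1.00 for all genes. Both telomere binders had peaks. ZBTB10 covered 2131, 1051 and 2520 nt in the knockdown and 1710, 751 and 3150 nt in the controls, and ZBTB48 covered 931, 0 and 871 nt against 721, 121 and 781 nt.

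The 6 members with the most peaks were ZBTB40 (32 over all lists), ZBTB10 and ZBTB38 (26 each), ZBTB21 (21), ZBTB7A (17) and ZBTB11 (16). ZBTB18 also had 16. ZBTB40, a gene at a locus linked to bone mineral density, had 8, 1 and 6 peaks after knockdown and 9, 1 and 7 in the controls. Its covered length went the other way, at 2581, 90 and 3207 nt in the knockdown and 1653, 90 and 2638 nt in the controls. ZBTB21 had 5, 3 and 2 peaks against 5, 2 and 4, over 2494, 243 and 3180 nt against 1444, 332 and 3122 nt. ZBTB11 had 5, 1 and 4 peaks against 1, 1 and 4, over 1262, 121 and 1678 nt against 360, 61 and 1678 nt. In knockdown replicates 1 and 3 and scrambled replicate 3 its peaks overlapped those of ZBTB11-AS1 on the other strand. The library kit named in the labels keeps strand, but strandedness of the authors' counting is not given in the sources used here, so these calls may share reads.

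Peak number and covered length came apart in replicate 1. Among the 38 members called in both of its libraries, 16 had fewer peaks in the knockdown (22.3% of all genes called in both) and 7 had more (27.6%), while 32 were longer. Fewer peaks over a greater length occurred in 12 (31.6%, against 16.1% of all genes). A gene with 1 peak in the control cannot have fewer and still be called. Scrambled replicate 1 had a median of 2.5 peaks per called member and 1 per called gene, so the 2 shares are not like for like. In replicate 3 fewer peaks over a greater length held for 4 of 39 (6.74% of all genes) and in replicate 2 for 0 of 18 (3.99%). ZBTB43 is an example: 4 peaks over 1288 nt in scrambled replicate 1 stood against 2 peaks over 1435 nt in knockdown replicate 1, and a single peak covered 1792 and 1793 nt in replicate 3. The mean length of a member peak was 438 nt in knockdown and 299 nt in scrambled replicate 1, beside 351 and 261 nt over all peaks. For those 12 members the count of peaks and the covered length had opposite signs.

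**Figure D4:**
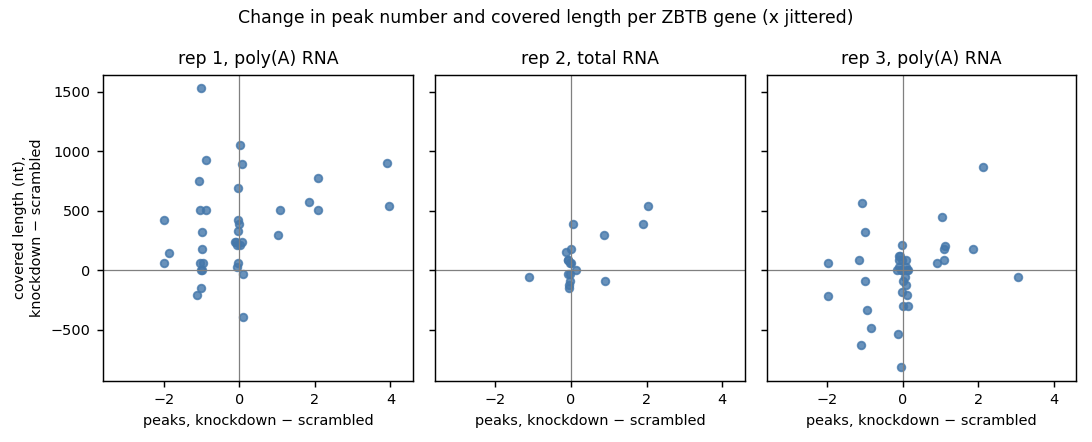
Difference in peak number (x axis, jittered) and in covered length (nt, y axis), knockdown minus scrambled, for ZBTB genes called in both libraries of each pair. In replicate 1, 12 genes lie at upper left, with fewer peaks and more length, against 0 in replicate 2 and 4 in replicate 3.

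Peaks were joined into regions where their exon blocks overlapped on the same strand, which gave 102 member regions, 1 to 6 per gene with a median of 2. Of these, 19 regions in 16 genes were called in all 6 libraries (12.7% of all 21675 regions) and 23 in 1 library (28.9%). Median exon length was 1290 nt over the 19 and 121 nt over the 23. In the 32 genes with 2 regions or more, the largest region held a median of 76.3% of the covered length (range 26.7 to 98.3%), and in 27 of the 32 no other region was called in more libraries. ZBTB10, ZBTB22 and ZBTB38 each had 2 regions called in every library. Those of ZBTB38 lay on chromosome 3 at 141161412 to 141163419 and 141165756 to 141166835 (hg19, plus strand). Those of ZBTB22 lay on chromosome 6 at 33282602 to 33283891 and 33284041 to 33284490 (minus strand). No annotation of hg19 was used here, so these positions were not assigned to coding sequence or UTR.

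More knockdown than scrambled libraries called 28 of the member regions (32.6% of all regions) and fewer called 25 (23.1%), with 49 even. None had calls in every knockdown and no scrambled library (0.129% of all regions) or the reverse (0.00923%). Only 2 regions differed by 2 libraries. A ZBTB46 region on chromosome 20 at 62375021 to 62375290 (minus strand) was called in all 3 knockdown libraries, over 180, 150 and 270 nt, and among the controls only in replicate 3, over 240 nt. It was the most 3′ of the 5 regions of that gene, and its peaks stood at the 35.9, 54.2 and 48.4 percentile in the knockdown. A ZBTB40 region on chromosome 1 at 22838244 to 22838423 (plus strand) was called in all 3 controls, over 180, 90 and 120 nt, and in knockdown replicate 3 only, over 90 nt. The same transcript held 5 other regions, and of these 1 was called in more knockdown libraries and 4 in equal numbers.

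The covered length of ZBTB7A was also listed by region. The region at 4054190 to 4055025 on chromosome 19 (minus strand) covered 359, 330 and 627 nt in the knockdown and 211, 0 and 240 nt in the controls. The region at 4047511 to 4048107 covered 329, 180 and 597 nt against 210, 120 and 507 nt. Both were longer in every pair. ZBTB7A was named for its summed length in all pairs, so these regions split the same values and add no support. The share of all regions longer in every pair was not computed. A further 270 nt and 120 nt were listed in knockdown replicate 3 only, and 90 nt in scrambled replicate 1 only.

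**Figure D5:**
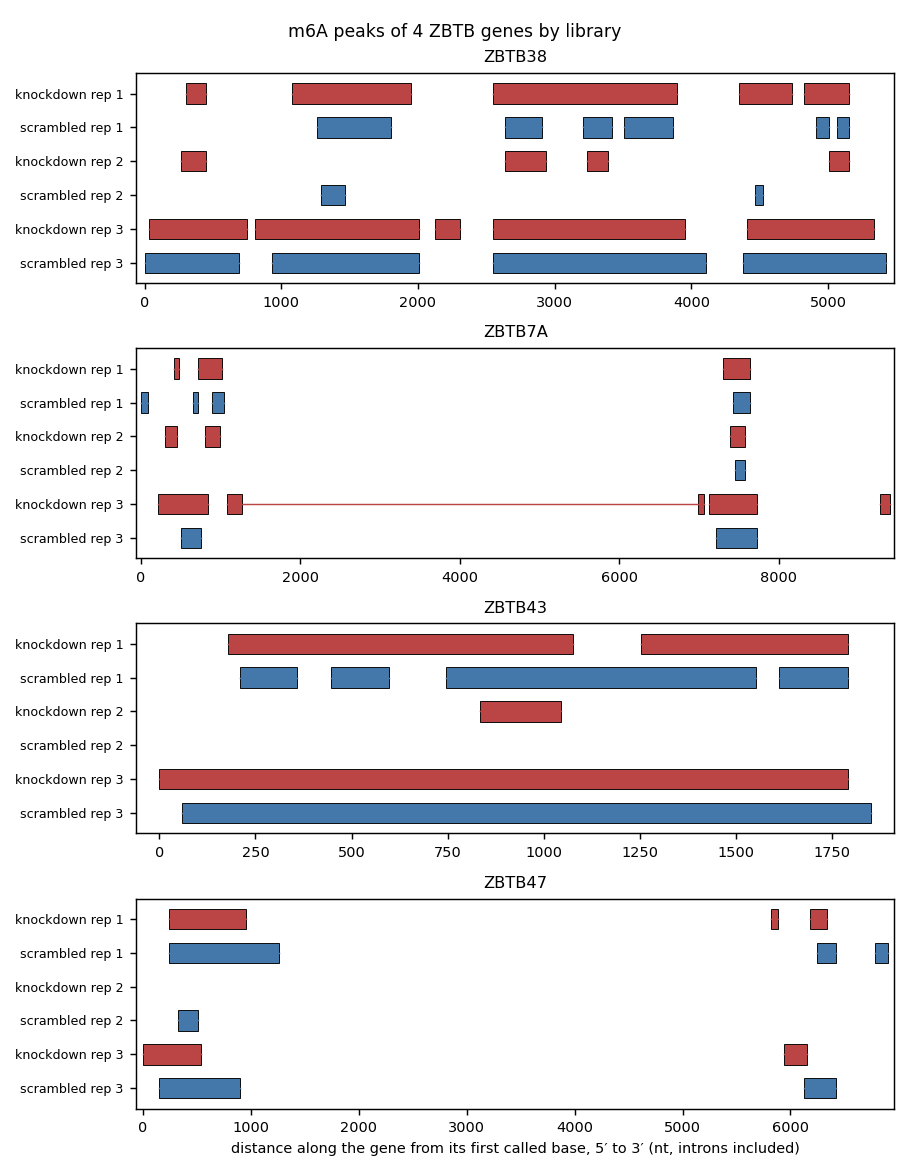
Peaks of ZBTB38, ZBTB7A, ZBTB43 and ZBTB47 in each library (knockdown red, scrambled blue) by distance along the gene from its first called base (nt, 5′ to 3′, introns included), with thin lines for introns inside a peak. In ZBTB43, 4 peaks of scrambled replicate 1 lie where replicate 3 has 1 peak, and ZBTB47 has no peak in knockdown replicate 2.

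Other BTB genes and partners of these proteins were counted the same way. Of 10 other BTB genes (most with zinc fingers, and NACC1 and NACC2 with a BEN domain instead), 8 had a peak, 7 of them in all 6 libraries (23.3% of all genes). Their counts were 0 called in more (26.1% of all genes) and 1 in fewer knockdown libraries (17.1%). BCL6 and BCL6B had no peak. HIC2 was longer in the knockdown in every pair, at 1379, 811 and 1679 nt against 900, 482 and 1649 nt. NACC2 was shorter in every pair, at 0, 0 and 390 nt against 151, 91 and 632 nt. Of 16 partners of BTB-zinc finger proteins, 13 had a peak, 4 called in more (26.1% of all genes) and 2 in fewer knockdown libraries (17.1%). The corepressor BCOR was longer in every pair and covered 392, 121 and 1592 nt in the knockdown and 331, 91 and 1263 nt in the controls. None of the genes of either list passed the exact permutation test across all genes.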

How the data were processed

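The authors deposited 1 peak list per immunoprecipitated library (6 of 12 samples; the 6 inputs were not analysed here), so peaks were not pooled. Each peak has a position, strand, exon blocks, a gene number and, per the file headers, a score. The deposited score (2e-40 to 0.011) has the range of a p-value and was lower for longer peaks (Spearman correlation across peaks -0.79 to -0.87 per list). It was used only to rank peaks within a list. The other values, per the file headers, are the exon block number and sizes. The submitters' processing notes name CASAVA 1.8.2, TopHat2, SAMtools and hg19. The sources used here do not give the peak caller, its threshold or any use of inputs. With no counts, depth is unknown and no interval for it was given. A longer list or longer peaks raise every covered length.

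Gene numbers were turned into symbols through RefSeq's GRCh38.p14 table, for names only (10500 of 10536 matched). Coordinates are those of the lists, counted from 1. Regions joined peaks whose exon blocks overlapped by at least 1 bp on one strand. Member regions were called by the member's own peaks. Peaks without a gene number (8.22% of all) were left out of genes, and 156 of them overlapped regions of 15 members. Sums over members got no test. Per-gene covered length had a two-sided exact permutation test, tested on simulated data, with Benjamini-Hochberg adjustment over all genes. The simulated libraries did not differ by RNA type as the real ones do. Members, lists and tests were chosen with earlier results of these data known. Values in every library are given for members differing by 2 libraries or with the same sign in all pairs, the 6 with the most peaks, and those called in 1 library; members gained or lost, and others named, were added after their values were seen. Replicate numbers pair the libraries because the labels tie each to a protocol, and deviations of same-numbered libraries correlated across regions (0.24, 0.31 and 0.29). Python 3.11.15, pandas 2.3.3 and SciPy 1.17.1 were used.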

Additional observations from a re-analysis of the deposited data

How the results depend on the processing

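Alternatives kept the best-scored 50% of each list, cut lists to equal size, merged overlapping peaks, asked for 2 peaks per gene, extended peaks by 100 bp, or left out libraries. Chosen after seeing the data were counting overlapping peaks without a gene number, dropping ZBTB8OS and ZBTB11-AS1, and cutting lists to equal covered length within pairs. Of 119 recomputed values, 27 were counts over 1.5 times above or below the reported one. The differences between condition means moved by less than 1 SD between replicates (the larger of the conditions' SDs), a margin wide enough to hold changes of sign. The 3 members called in more knockdown libraries became 5 with the best-scored 50% or with all lists at equal size, and 7 with 2 peaks per gene. All lists at equal size gave 14 regions called in more and 16 in fewer knockdown libraries, in place of 28 and 25. Equal covered length gave 18 members in fewer, and 9 regions in more and 47 in fewer. That setting shortens mainly the knockdown list of replicate 1. For these alternatives and those below, no share over all genes or regions is given beside the counts. The counts therefore cannot be told apart from a shift of the whole lists.

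Leaving out 1 library or pair gave 0 to 13 members in more and 1 to 19 in fewer knockdown libraries, and 16 to 62 and 15 to 59 regions, with calls compared as shares of the libraries left. Without replicate 2 the member counts were 0 and 1, so the counts rest on that pair. Without knockdown replicate 2 they were 13 and 1, and without scrambled replicate 2 they were 0 and 19. Knockdown minus scrambled ran from -6.33 to 3.83 for members called, -22.33 to 19.5 for peaks and -8.34 to 19.63 kb for covered length, so no sign was stable. With the replicate block, 0 genes passed the sign-flip test, as 0 did without it. Neither count could differ from 0, since the smallest possible p is 0.25 for the sign-flip test and 0.1 for the exact permutation test.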
